A study of Mus musculus with 20 samples.

Results

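The ubiquitin-conjugating (E2) enzyme genes were taken as the rows of the count files whose symbol is Ube2, a letter and at most a digit and a further letter, without *Ube2c*. This gave 34 of 47729 genes, of which 33 had a count in at least 1 of 20 libraries and 29 passed the filter on low counts and were tested. Ubiquitin is passed along a chain of enzymes: an E1 activates it, an E2 carries it as a thioester, and an E3 ligase brings the loaded E2 to a substrate. RING ligases help the E2 hand ubiquitin over directly, whereas HECT and RBR ligases first take it onto a cysteine of their own. UBE3A, the protein overexpressed in these mice, is a HECT ligase, and the E2 it is best known to work with is UBE2L3. Related E2s carry NEDD8, ISG15 and other small modifiers that resemble ubiquitin.

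The study asked whether additional *Ube3a* copies change transcript levels in the young brain. RNA came from the cortex and hippocampus of 5 WT and 5 Ube3aOE pups at P7 on a C57Bl/6J background, 1 library from each tissue of each pup. Ube3aOE mice carry a 2-copy insertion of a bacterial artificial chromosome transgene with mouse *Ube3a* and its flanking sequence, which expresses it from its own regulatory sequence and carries loxP sites, next to the intact endogenous gene. WT mice carry no transgene, and the labels name no treatment and no Cre in either group. The study's account puts its later experiments in line E, with the insertion on chromosome 3, which also holds *Ube2d3* and *Ube2q1*. The labels themselves name no line. Levels are given in CPM, the usual unit in which the count of a gene is scaled to the library's total on genes, here with TMM factors.

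The libraries held 14191093 to 16752326 counts on genes, with a median of 16295195. The lowest total and the lowest share of reads on genes (69.7%, others up to 81.2%) were those of WT mouse 2 in cortex. In its hippocampus library 6 genes known from neocortical neurons summed to 441 CPM, the highest of the WT hippocampus libraries, whose median was 243. Choroid plexus genes summed to 6.91 to 1935 CPM over Ube3aOE hippocampus libraries and to 8.62 to 31.7 over those of WT. In 2 WT mice, 4 libraries in all, the counts of sex-linked genes went against the labelled sex. *Ube3a* itself matched the genotype labels. It was at 58.6, 54.4, 69.96, 60.2 and 62.1 CPM in WT cortex and at 136, 129.8, 181, 129.6 and 182 in Ube3aOE cortex. In hippocampus the values were 69.5, 76.8, 57.1, 60.2 and 59.9 CPM in WT and 142, 147, 183, 143 and 195 in Ube3aOE mice. The genotypes did not overlap in either tissue, and the log2 fold change was 1.31 ± 0.11 (SE) in cortex and 1.32 ± 0.11 in hippocampus (adjusted p = 0.000822 and 4.41e-04).

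The E2 genes differed widely in level. Per kilobase of the longest coding transcript, *Ube2m*, which carries NEDD8 to cullins, was the most abundant in all 4 groups, at 114 ± 3.48 CPM per kb in WT cortex and 105 ± 2.01 in WT hippocampus (SD, n = 5). *Ube2d1*, a widely acting E2 that starts ubiquitin chains, followed in WT cortex with 84.1 ± 7.80, then *Ube2e3* with 77.7 ± 7.68 and *Ube2b* with 77.3 ± 3.37. Neighbours among these last 3 did not differ by more than 1 SD. In WT hippocampus *Ube2b* came before *Ube2d1*, at 75.6 ± 3.55 and 70.9 ± 3.80 CPM per kb. At the low end stood *Ube2f*, the other NEDD8 E2, with 7.58 ± 0.427 CPM per kb in WT cortex, *Ube2l6*, which carries ISG15, with 4.31 ± 0.642, and *Ube2t*, the E2 of the Fanconi anaemia repair pathway, with 1.77 ± 0.142. *Ube2l3* had rank 10 in WT cortex at 42.3 ± 1.81 CPM per kb. Of 28 neighbouring pairs in the order, 15 in each WT tissue and 16 in each Ube3aOE tissue differed by less than 1 SD. The order depends on the transcript length used: with the median length of coding transcripts *Ube2e3* had rank 1, *Ube2m* had rank 2 and *Ube2d1* rank 9 in WT cortex. *Ube2f* then moved from rank 27 to rank 22 in WT cortex, at 34.1 CPM per kb, while *Ube2l6* and *Ube2t* kept ranks 28 and 29.

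**Figure D1:**
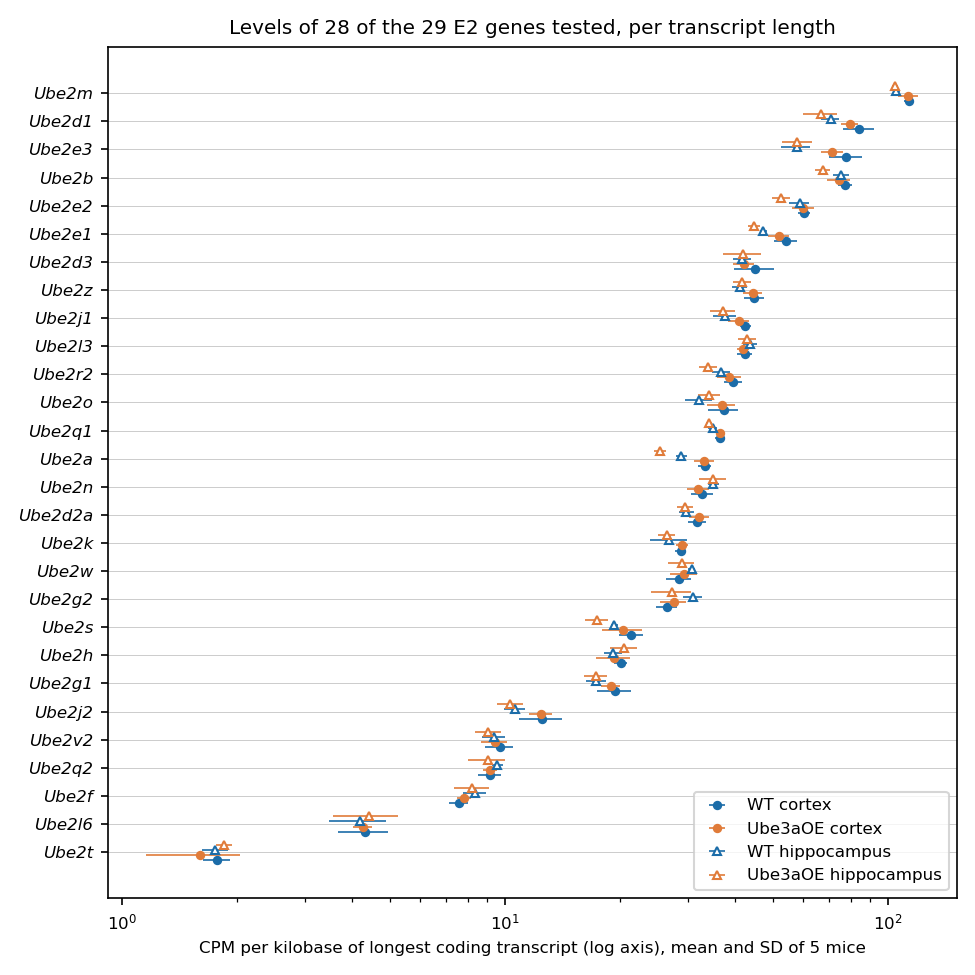
Level of 28 of the 29 tested E2 genes in CPM per kilobase of longest coding transcript on a log axis; points are means and bars SDs of 5 mice, circles cortex and triangles hippocampus, blue WT and orange Ube3aOE. *Ube2m* lies highest, *Ube2l6* and *Ube2t* lowest, and the 4 groups of a gene lie close together beside the distances between genes.

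Mouse to mouse, the E2 genes varied little. The coefficient of variation over 5 mice had a median over the members of 6.36% in WT cortex, 6.41% in Ube3aOE cortex, 5.36% in WT hippocampus and 6.87% in Ube3aOE hippocampus. For all 8121 genes at 20 CPM or more the medians were 7.02%, 7.85%, 7.35% and 8.62%, and 27 of the members lie in that range of levels. The smallest spread was that of *Ube2q1* in Ube3aOE hippocampus (1.62%), and the widest that of *Ube2t* in Ube3aOE cortex (27.5%), whose level is near 1.78 CPM.

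Of the 34 genes 5 were too low to test. *Ube2d2b* had 0 counts in all 20 libraries, where 3 counts correspond to 0.179 to 0.211 CPM. *Ube2d4* and *Ube2nl*, both annotated as processed pseudogenes, had 12 and 6 counts in all, and *Ube2u* had 30. *Ube2v1*, a catalytically inactive partner of the E2 *Ube2n*, had 86 counts over 20 libraries and 0 to 9 in any 1 library. On the annotation used here 61.5% of the exon bases of *Ube2v1* are shared on the same strand with the readthrough gene *Gm20431*. Reads over more than 1 gene made up 0.756% to 0.879% of a library and were not assigned to a gene, and their part in the low count of *Ube2v1* was not tested. Reads that align to more than 1 place were also left out, so members with close copies are less certain. Of the stretches of 50 bases in *Ube2q2* transcripts 16.4% recur in other genes, most often *Gm4895*. The share was 9.59% for *Ube2j2* (*Gm5801*), 9.51% for *Ube2n* (pseudogene *Ube2n-ps1*), 8.87% for *Ube2h* (*Gm2058*), 7.25% for *Ube2l3* (*Gm10705*) and 6.03% for *Ube2g2* (*Gm49325*). *Ube2g2* also has 10.3% of its exon bases in another gene on the same strand, most often *Gm49325*. For *Ube2l3*, 28.6% of the exon bases lie opposite *Ydjc*, and the strand setting of the counting is not given in the sources used here.

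No E2 gene passed the test between the genotypes. In cortex 0 of 29 members passed an adjusted p under 0.05 (edgeR's quasi-likelihood test with Benjamini-Hochberg adjustment), in hippocampus 0 of 29, and with the counts of both tissues summed by mouse 0 of 29. Over all genes 1 of 14947 (0.00669%), 1 of 15220 (0.00657%) and 1 of 16334 (0.00612%) passed, in each case *Ube3a*. DESeq2 also called 0 members in each of these comparisons. At an unadjusted p under 0.05 there were 0 members in cortex (DESeq2 0), 5 in hippocampus (DESeq2 4) and 1 for the sums (DESeq2 2), beside 4.44%, 7.21% and 6.01% of all genes. The precision bounds what could have been missed. In cortex the 95% confidence interval of the log2 fold change lay inside -0.5 to 0.5 for 28 of 29 members, and in hippocampus for 29 of 29, beside 73.8% and 69.9% of all genes tested. The exception in cortex was *Ube2t*, with an interval from -0.58 to 0.30. The members' log2 fold changes ran from -0.14 to 0.064 in cortex and from -0.19 to 0.094 in hippocampus, with a median SE of 0.065 in both. Most of them were below 0, 22 of 29 in each tissue, with medians of -0.016 and -0.028 beside medians of 0.0033 and 0.0023 for all genes. Over all genes 51.4% in cortex and 50.7% in hippocampus were above 0, and 7 of 29 members in each.

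*Ube2l3* (ENSMUSG00000038965, chr16:17152013-17202649 on GRCm38), the E2 best known to work with UBE3A, overlapped between the genotypes in both tissues. The mice read 124, 126, 136, 129.9 and 122 CPM in WT cortex, 124, 130.0, 129, 119.8 and 129.6 in Ube3aOE cortex, 125, 131, 140.2, 131 and 132 in WT hippocampus and 129.6, 128, 141, 128 and 120.5 in Ube3aOE hippocampus. No group stood apart from the others. The log2 fold change of Ube3aOE against WT was -0.0099 ± 0.048 in cortex (95% interval -0.11 to 0.093, adjusted p = 0.992) and -0.028 ± 0.055 in hippocampus (95% interval -0.15 to 0.092, adjusted p = 0.901). Its relative *Ube2l6* was low, with 6.44, 8.30, 5.64, 6.99 and 6.29 CPM in WT cortex, 6.48, 6.14, 6.62, 7.20 and 6.71 in Ube3aOE cortex, 7.09, 5.41, 5.36, 7.87 and 6.93 in WT hippocampus and 8.58, 5.49, 7.21, 5.60 and 7.55 in Ube3aOE hippocampus. Its genotypes overlapped as well, and its wider intervals ran from -0.27 to 0.24 in cortex and from -0.27 to 0.42 in hippocampus.

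The *Ube2d* genes encode the E2s that start chains with a broad range of RING and HECT ligases. *Ube2d1* (chr10:71254980-71285262) gave 118, 138, 123, 114 and 109 CPM in WT cortex, 114, 124, 113, 108 and 110.1 in Ube3aOE cortex, 98.1, 106, 109, 97.5 and 96.9 in WT hippocampus and 104, 101, 103, 86.0 and 84.3 in Ube3aOE hippocampus. Its genotypes overlapped in each tissue (log2 fold change -0.079 ± 0.065 in cortex and -0.087 ± 0.074 in hippocampus, adjusted p = 0.960 and 0.754). *Ube2d2a* gave 75.0, 81.9, 84.9, 77.9 and 75.1 CPM in WT cortex, 77.1, 79.2, 86.2, 82.0 and 74.2 in Ube3aOE cortex, 71.9, 74.6, 79.1, 73.1 and 70.4 in WT hippocampus and 67.2, 74.3, 76.5, 73.5 and 74.7 in Ube3aOE hippocampus. Its log2 fold changes were 0.018 ± 0.058 in cortex and -0.013 ± 0.055 in hippocampus, smaller than their SEs (adjusted p = 0.990 and 0.950). *Ube2d3* (chr3:135438149-135468198) gave 162, 165, 209, 168 and 159 CPM in WT cortex, 145, 156, 168, 168 and 168 in Ube3aOE cortex, 169, 162, 166, 147 and 154 in WT hippocampus and 134, 151, 172, 173 and 175 in Ube3aOE hippocampus. WT mouse 3 was far above the other WT cortex libraries, and the log2 fold change was -0.10 ± 0.077 in cortex and 0.0074 ± 0.077 in hippocampus (adjusted p = 0.960 and 0.980).

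The 5 members with an unadjusted p under 0.05 in hippocampus were all lower in Ube3aOE mice, and none passed the adjustment (adjusted p = 0.668 for each). *Ube2a* (chrX:36873900-36884222), a RAD6 homolog that marks histones and repair factors, had the largest difference, -0.19 ± 0.053. Its hippocampus values were 52.3, 50.4, 50.4, 48.05 and 49.1 CPM in WT and 42.5, 46.2, 44.5, 44.2 and 42.4 in Ube3aOE mice, so that all 5 Ube3aOE libraries were below all 5 WT libraries. Its cortex values, 54.9, 57.8, 60.4, 58.7 and 56.0 CPM in WT and 57.4, 61.7, 54.2, 53.6 and 60.3 in Ube3aOE mice, overlapped, with a log2 fold change of -0.00042 ± 0.056. *Ube2b*, the other RAD6 homolog, differed by -0.16 ± 0.055 in hippocampus, with 137, 140.2, 140.4, 125 and 135 CPM in WT and 123, 121, 122, 127 and 113 in Ube3aOE mice. There 1 Ube3aOE library, that of mouse 9, was above the lowest WT library. *Ube2s*, which extends chains with the anaphase promoting complex, differed by -0.16 ± 0.069, from 23.1, 24.2, 24.4, 24.2 and 23.7 CPM in WT to 20.3, 22.0, 22.8, 22.7 and 19.5, without overlap. *Ube2e2* differed by -0.16 ± 0.060 and *Ube2g2*, an E2 of protein degradation at the endoplasmic reticulum, by -0.18 ± 0.082, and both overlapped between the genotypes.

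In hippocampus 2 of 29 members, *Ube2a* and *Ube2s*, did not overlap between the genotypes, beside 1.12% of all 15661 genes, and in cortex 0 of 29 did not, beside 0.664%. Over the 17 other settings of the hippocampus comparison the adjusted p of *Ube2a* ran from 0.299 to 1.000. The count of members at an unadjusted p under 0.05 ran from 1 to 6 over these settings, against 5 as reported. It was 6 without Ube3aOE mouse 8 or with labelled sex as a covariate, 3 without Ube3aOE mouse 9 or mouse 10, 2 without both of these, 2 without WT mouse 3 or WT mouse 5, and 1 once trends of the counts on GC content and transcript length were taken out. The genotype difference did not pass the test for a change between the tissues in any member: 0 of 29 had an adjusted p under 0.05 for the interaction (edgeR, smallest adjusted p = 0.997), beside 0% of all genes. At an unadjusted p under 0.05 there were 2 members, *Ube2a* (-0.18 ± 0.071) and *Ube2g2* (-0.24 ± 0.11), and DESeq2 gave 2 as well and called 0.

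Some neuronal markers also set Ube3aOE mice 9 and 10 apart in hippocampus, but not all in the same way. *Neurod6*, a gene of excitatory neurons, was at 195 and 199 CPM in these libraries and at 287 to 402 in the other 8. *Slc17a6*, a glutamate transporter, was at 455 CPM in mouse 10 against 64.0 to 204 in the other 9, and *Slc32a1*, the transporter of inhibitory neurons, at 171 in mouse 9 against 55.0 to 76.1. The 5 excitatory markers summed to 1459 to 1895 CPM in WT and 1082 to 1806 in Ube3aOE hippocampus, and the 5 inhibitory markers to 352 to 396 and 289 to 688. The excitatory sum was lowest in mouse 9, while that of mouse 10 was the median of its group, 1476 CPM. The inhibitory sum was highest in mouse 9 and lowest in mouse 10. No gene of either list, or of the 6 markers of dividing cells, passed between the genotypes (edgeR). The log2 fold changes were -0.39 ± 0.18 for *Neurod6*, -0.35 ± 0.16 for *Slc17a7*, also of excitatory neurons, and 0.39 ± 0.13 for *Mki67*, of dividing cells (adjusted p = 0.668 for each). The median log2 fold change was -0.21 over the excitatory, 0.24 over the inhibitory and 0.041 over the dividing-cell markers, beside 0.0023 for all genes. The neuronal lists thus leaned in opposite directions, although *Slc17a6* averaged higher in Ube3aOE mice, unlike the other excitatory genes. *Slc17a6* gave 70.6, 92.4, 67.3, 177 and 64.0 CPM in WT hippocampus and 67.8, 204, 102, 103 and 455 in Ube3aOE hippocampus. The hippocampus libraries of Ube3aOE mice 9 and 10 held the lowest *Ube2g2*, at 48.8 and 47.9 CPM against 58.7 to 66.8 in the other 8, and the lowest *Ube2e2*, at 74.4 and 77.2 against 82.9 to 96.3. Without both mice the log2 fold change was -0.056 for *Ube2g2*, -0.10 for *Ube2e2*, -0.17 for *Ube2a*, -0.13 for *Ube2s* and -0.15 for *Ube2b*. The part of these markers in the genotype differences was not tested.

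**Figure D2:**
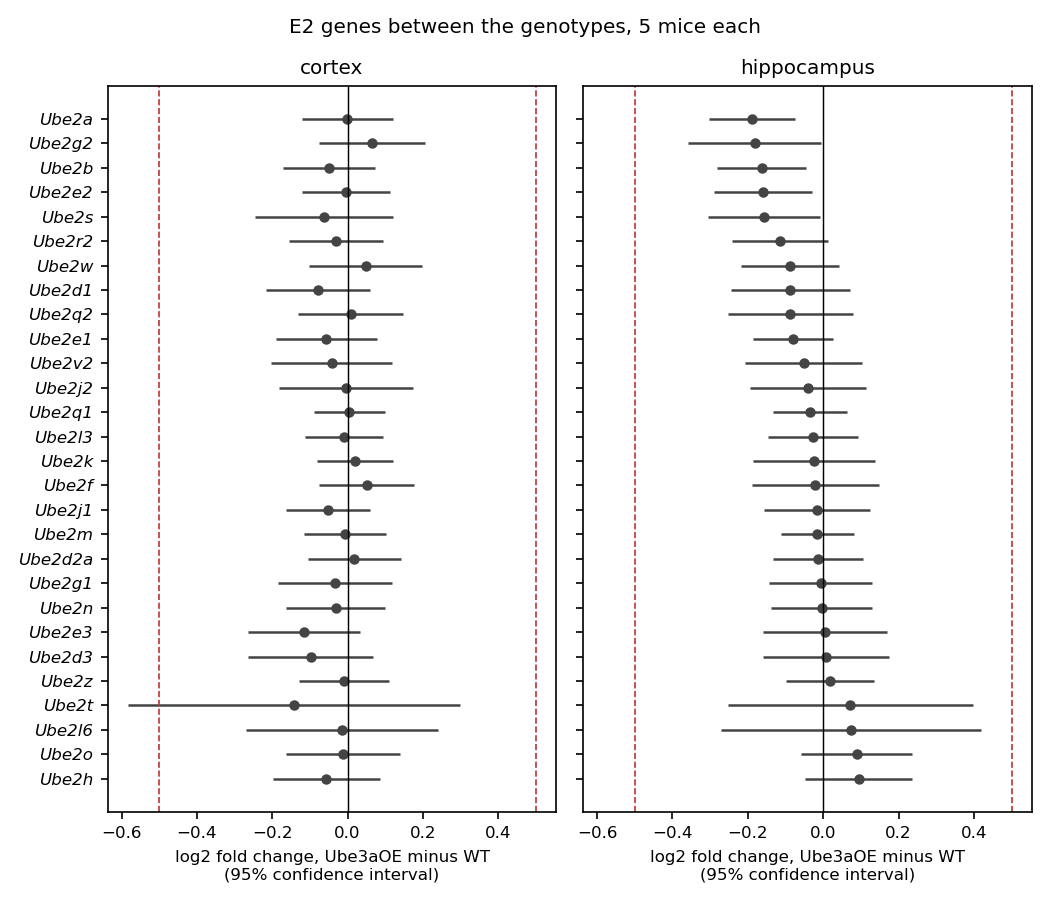
Log2 fold change of Ube3aOE against WT for 28 of the 29 tested E2 genes in cortex (left) and hippocampus (right), with 95% confidence intervals from edgeR's quasi-likelihood fit and dashed lines at -0.5 and 0.5. In hippocampus every interval drawn lies inside the dashed lines, and in cortex that of *Ube2t* alone reaches past -0.5.

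Between the regions the E2 genes differed in 1 main direction. Of 29 members 17 (58.6%) passed an adjusted p under 0.05 over the 20 libraries, beside 50.9% of all 15661 genes. Of these, 16 (55.2%) were lower in hippocampus than in cortex and 1 (3.45%), *Ube2n*, was higher, whereas over all genes 25.6% were lower and 25.3% higher. The changes were small: 0 members passed a log2 fold change of 0.5 in either direction, beside 19.2% of all genes, and the falls among called members ran from 5.29% to 22.4%. The median log2 fold change of the members was -0.11, beside -0.0053 for all genes. Summed over all members, the E2 genes made up 2785 ± 94.8 CPM in WT cortex, 2722 ± 60.6 in Ube3aOE cortex, 2590 ± 72.3 in WT hippocampus and 2533 ± 51.4 in Ube3aOE hippocampus (SD, n = 5). Within a mouse the sum was lower in hippocampus in 10 of 10 mice, with ratios from 0.899 to 0.9605 and a median of 0.928. In whole tissue, fewer cells of a type that holds a transcript and less of it per cell cannot be told apart.

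The *Ube2e* genes, close relatives of the *Ube2d* genes with an extended N-terminus, were lower in hippocampus in 3 of 3. Over all members 55.2% were called lower, and over all genes 25.6%. *Ube2e3* (chr2:78868124-78921293) had the largest difference of all members. It gave 156, 193, 192, 173 and 159.7 CPM in WT cortex, 151, 175, 169, 155 and 155 in Ube3aOE cortex, 125, 145, 134, 131 and 114 in WT hippocampus and 115, 147, 130.1, 127 and 134 in Ube3aOE hippocampus. No hippocampus library reached the lowest cortex library, and the log2 fold change of hippocampus against cortex was -0.37 ± 0.053 (adjusted p = 8.25e-06), a level 0.776 times that of cortex. The difference was -0.41 ± 0.075 in WT mice alone and -0.29 ± 0.070 in Ube3aOE mice alone. *Ube2e1* (chr14:18282722-18331859) was at 67.7 to 80.6 CPM (median 73.4) over the 10 cortex libraries and 59.8 to 67.7 CPM (median 64.9) over the 10 hippocampus libraries. It was lower in hippocampus in 10 of 10 mice, although the ranges met by a narrow margin (log2 fold change -0.21 ± 0.038, adjusted p = 1.08e-04). By group *Ube2e1* averaged 76.3 ± 5.09 CPM in WT cortex, 73.2 ± 4.73 in Ube3aOE cortex, 66.5 ± 1.34 in WT hippocampus and 63.02 ± 2.20 in Ube3aOE hippocampus (SD, n = 5). *Ube2e2*, its neighbour on chromosome 14 (chr14:18573575-18894267), fell less, by 0.12 on the log2 scale (adjusted p = 0.0183), and was lower in 7 of 10 mice.

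Among the *Ube2d* genes, *Ube2d1* was lower in hippocampus in 10 of 10 mice. Its levels were 108 to 138 CPM (median 114) over the 10 cortex libraries and 84.3 to 109 CPM (median 99.5) over the 10 hippocampus libraries, with a log2 fold change of -0.25 ± 0.050 (adjusted p = 2.74e-04). *Ube2d2a* was at 74.2 to 86.2 CPM (median 78.5) over the 10 cortex libraries and 67.2 to 79.1 CPM (median 73.9) over the 10 hippocampus libraries. It was lower in 9 of 10 mice, a smaller difference of -0.11 ± 0.038 (adjusted p = 0.0201, from 0.00130 to 0.276 over the 20 other settings). *Ube2d3* was at 145 to 209 CPM (median 167) over the 10 cortex libraries and 134 to 175 CPM (median 164) over the 10 hippocampus libraries and did not pass (-0.058 ± 0.057, adjusted p = 0.415). The *Ube2l* genes did not pass either. *Ube2l3* had a log2 fold change of 0.042 ± 0.034 (95% interval -0.029 to 0.11, adjusted p = 0.319) and *Ube2l6* of 0.0080 ± 0.10 (95% interval -0.20 to 0.21, adjusted p = 0.955).

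**Figure D3:**
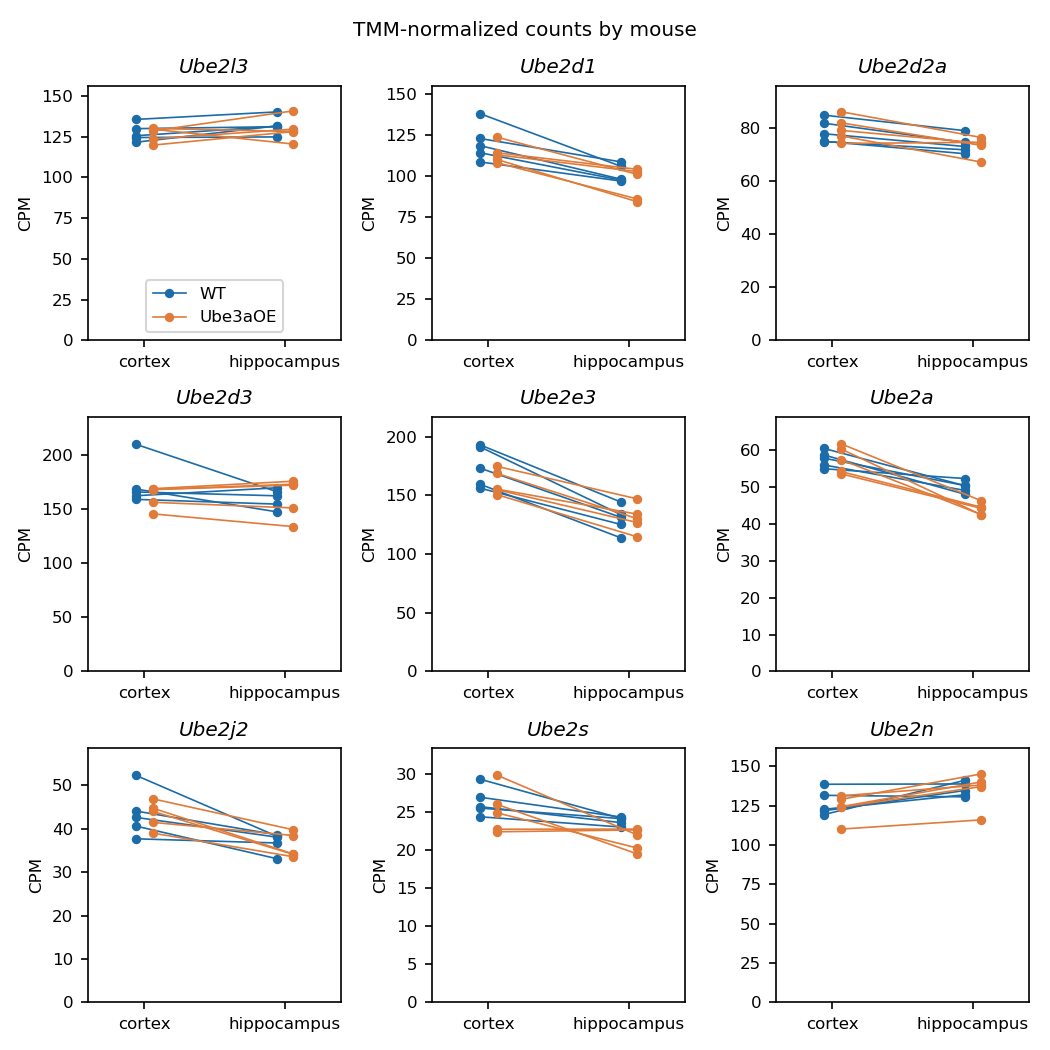
CPM of 9 E2 genes in the cortex and hippocampus of each mouse, with a line for each of the 10 mice (blue WT, orange Ube3aOE) and axes that start at 0. The lines of *Ube2d1*, *Ube2e3*, *Ube2a* and *Ube2j2* fall in 10 of 10 mice, those of *Ube2n* rise in 9 of 10, and those of *Ube2l3* stay near one level.

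Of the RAD6 homologs and the repair E2, 1 of 3 passed, beside 58.6% of all members and 50.9% of all genes. *Ube2a* was at 53.6 to 61.7 CPM (median 57.6) over the 10 cortex libraries and 42.4 to 52.3 CPM (median 47.1) over the 10 hippocampus libraries. The regions did not overlap and each mouse was lower in hippocampus, with a log2 fold change of -0.29 ± 0.035 (adjusted p = 6.91e-07). It was -0.18 ± 0.049 in WT mice alone and -0.38 ± 0.059 in Ube3aOE mice alone. *Ube2b* missed the threshold (-0.086 ± 0.037, adjusted p = 0.0590) and passed it in the fit with the mouse as a block, which pairs the tissues of an animal (adjusted p = 0.0392). *Ube2t*, at 1.099 to 2.47 CPM in cortex and 1.72 to 2.23 in hippocampus, had a log2 fold change of 0.10 ± 0.12 (adjusted p = 0.510). By group *Ube2t* averaged 1.97 ± 0.158 CPM in WT cortex, 1.78 ± 0.490 in Ube3aOE cortex, 1.96 ± 0.155 in WT hippocampus and 2.06 ± 0.101 in Ube3aOE hippocampus (SD, n = 5). *Ube2a* and *Ube2e3* were the 2 members of 29 whose regions did not overlap over the 20 libraries, beside 9.27% of all genes.

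The E2s grouped here as extending the chains read by the proteasome, *Ube2r2*, *Ube2g1* and *Ube2k*, were lower in hippocampus in 3 of 3, beside 25.6% of all genes. The grouping was made with earlier results of these data known. *Ube2r2* (chr4:41135743-41193380), which works with cullin ligases, was at 125 to 154 CPM (median 140.3) over the 10 cortex libraries and 112 to 141 CPM (median 129) over the 10 hippocampus libraries, and was lower in 10 of 10 mice (-0.14 ± 0.041, adjusted p = 0.00569). By group *Ube2r2* averaged 142 ± 7.58 CPM in WT cortex, 139 ± 9.98 in Ube3aOE cortex, 132 ± 7.09 in WT hippocampus and 122 ± 6.91 in Ube3aOE hippocampus (SD, n = 5). *Ube2g1* was at 64.3 to 84.2 CPM (median 75.9) over the 10 cortex libraries and 61.4 to 72.4 CPM (median 69.5) over the 10 hippocampus libraries (-0.15 ± 0.048, adjusted p = 0.0156), and *Ube2k* differed by -0.12 ± 0.043 (adjusted p = 0.0269). By group *Ube2g1* averaged 76.2 ± 7.63 CPM in WT cortex, 74.3 ± 4.26 in Ube3aOE cortex, 68.1 ± 4.02 in WT hippocampus and 67.9 ± 4.61 in Ube3aOE hippocampus (SD, n = 5). Of the E2s of the endoplasmic reticulum, which serve the removal of misfolded proteins, the membrane-bound *Ube2j1* and *Ube2j2* fell and *Ube2g2* did not. *Ube2j2* (chr4:155943831-155959604) gave 37.7, 52.3, 44.1, 42.6 and 40.6 CPM in WT cortex, 44.8, 46.9, 39.03, 41.5 and 44.1 in Ube3aOE cortex, 36.7, 38.3, 38.6, 38.1 and 33.1 in WT hippocampus and 34.2, 39.8, 33.6, 38.5 and 34.1 in Ube3aOE hippocampus. WT mouse 2 had the highest cortex value, and each mouse was lower in hippocampus (-0.25 ± 0.056, adjusted p = 0.000867). *Ube2j1* was at 132 to 158 CPM (median 148) over the 10 cortex libraries and 119 to 145 CPM (median 131) over the 10 hippocampus libraries (-0.16 ± 0.041, adjusted p = 0.00326). By group *Ube2j1* averaged 149.9 ± 4.82 CPM in WT cortex, 144 ± 9.08 in Ube3aOE cortex, 132 ± 8.77 in WT hippocampus and 131 ± 9.78 in Ube3aOE hippocampus (SD, n = 5). *Ube2g2* had a positive difference of 0.11 ± 0.053 (adjusted p = 0.0933, and 0.0394 with the mouse as a block).

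*Ube2n* was the exception in direction. It is the E2 of chains that serve signalling and DNA repair rather than degradation, and it acts as a dimer with an inactive partner encoded by *Ube2v1* or *Ube2v2*. *Ube2n* (chr10:95515145-95545657) gave 119, 123, 139, 132 and 122 CPM in WT cortex, 110.1, 124, 124, 131 and 129 in Ube3aOE cortex, 141, 132, 139, 131 and 135 in WT hippocampus and 116, 137, 140.1, 138 and 145 in Ube3aOE hippocampus. It was higher in hippocampus in 9 of 10 mice, the ranges overlapped, and the log2 fold change was 0.11 ± 0.043 (adjusted p = 0.0361), a rise of 8.07%. The call depended on single mice: the adjusted p ran from 0.00772 to 0.561 over 20 other settings, was lost without WT mouse 1, WT mouse 5 or Ube3aOE mice 7, 8 or 10, and was lost with the length and GC trend removed. *Ube2v2* did not pass (-0.052 ± 0.051, adjusted p = 0.423).

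Of the E2s for NEDD8, *Ube2m* (chr7:13035120-13038275) was lower in hippocampus in 10 of 10 mice, at 157 to 179.6 CPM (median 166) over the 10 cortex libraries and 149 to 158 CPM (median 154) over the 10 hippocampus libraries (-0.11 ± 0.031, adjusted p = 0.00405), a call lost with the length and GC trend removed. By group *Ube2m* averaged 168 ± 5.13 CPM in WT cortex, 166 ± 10.3 in Ube3aOE cortex, 155 ± 2.96 in WT hippocampus and 154 ± 2.70 in Ube3aOE hippocampus (SD, n = 5). *Ube2f* missed the threshold, with a difference of 0.10 ± 0.048 (adjusted p = 0.0795, and 0.0360 with the mouse as a block). By group *Ube2f* averaged 42.9 ± 2.41 CPM in WT cortex, 44.3 ± 1.87 in Ube3aOE cortex, 47.1 ± 3.27 in WT hippocampus and 46.5 ± 4.97 in Ube3aOE hippocampus (SD, n = 5). *Ube2s* (chr7:4794546-4812590) was at 22.5 to 29.9 CPM (median 25.7) over the 10 cortex libraries and 19.5 to 24.4 CPM (median 23.0) over the 10 hippocampus libraries and lower in 8 of 10 mice (-0.19 ± 0.054, adjusted p = 0.00599). By group *Ube2s* averaged 26.4 ± 1.89 CPM in WT cortex, 25.2 ± 3.02 in Ube3aOE cortex, 23.9 ± 0.540 in WT hippocampus and 21.5 ± 1.48 in Ube3aOE hippocampus (SD, n = 5).

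The remaining E2s were split. *Ube2o*, a large enzyme that is both E2 and E3, was at 167 to 223 CPM (median 189.7) over the 10 cortex libraries and 155 to 192 CPM (median 173) over the 10 hippocampus libraries and lower in 9 of 10 mice (-0.16 ± 0.050, adjusted p = 0.0105). By group *Ube2o* averaged 194 ± 17.0 CPM in WT cortex, 192 ± 16.0 in Ube3aOE cortex, 167 ± 13.1 in WT hippocampus and 178 ± 11.9 in Ube3aOE hippocampus (SD, n = 5). *Ube2z*, which is loaded by the E1 UBA6, and *Ube2q1* had log2 fold changes of -0.11 ± 0.038 and -0.078 ± 0.028 (adjusted p = 0.0225 and 0.0217), and were lower in 9 of 10 mice each. *Ube2h*, *Ube2q2* and *Ube2w*, which attaches ubiquitin to the N-terminus of proteins, did not pass, with log2 fold changes of 0.012 ± 0.047, 0.022 ± 0.049 and 0.047 ± 0.045 (adjusted p = 0.854, 0.737 and 0.406).

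**Figure D4:**
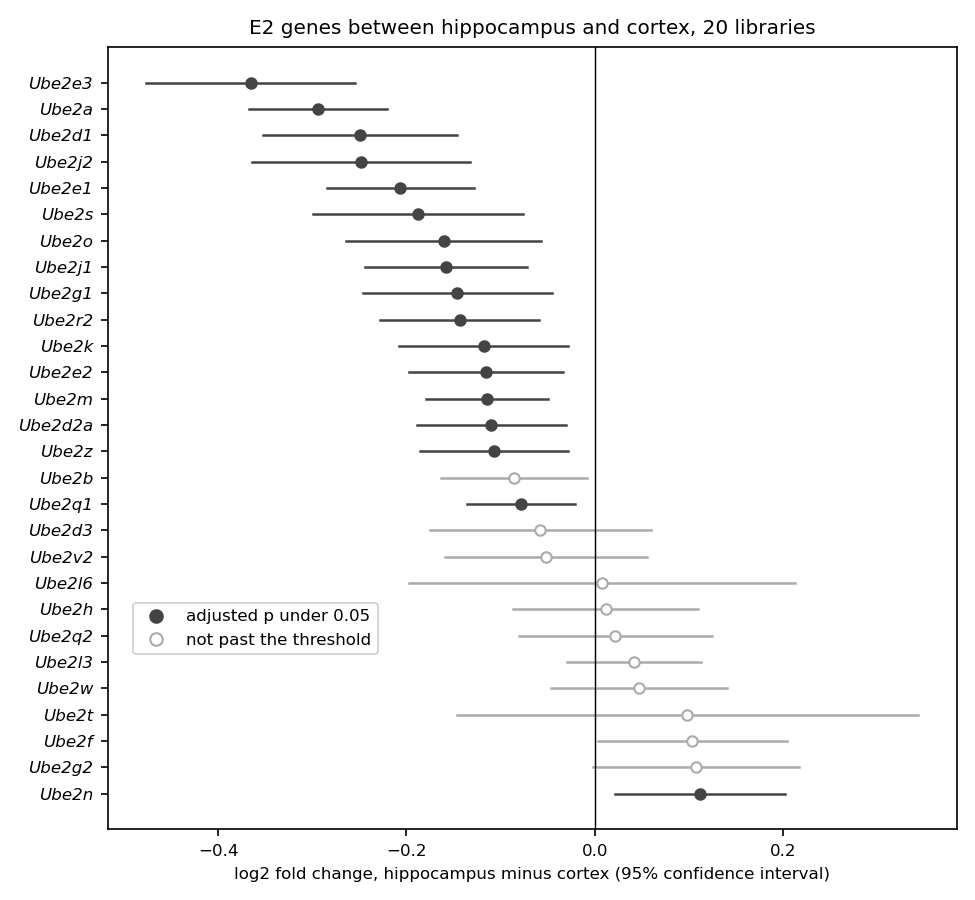
Log2 fold change of hippocampus against cortex for 28 of the 29 tested E2 genes over 20 libraries, with 95% confidence intervals from edgeR's quasi-likelihood fit; filled points passed an adjusted p under 0.05. Filled points lie left of 0 for 16 genes, from *Ube2e3* at -0.37 to *Ube2q1* at -0.078, and right of 0 for *Ube2n* at 0.11.

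The number of members called between the regions was 13 to 17 when 1 mouse was left out, beside 7284 to 7980 of all genes. It was 14 without WT mouse 2, whose libraries stood apart (*Ube2d2a*, *Ube2e2*, *Ube2q1* and *Ube2z* were lost and *Ube2g2* was gained). It was 13 without WT mouse 1, 15 without Ube3aOE mouse 7 and 15 without Ube3aOE mouse 9, the mice whose hippocampus libraries held the most of the choroid plexus gene *Ttr* (1898 and 324 CPM). *Ube2k* lost its call without mouse 1, 3, 4, 7, 9 or 10, *Ube2q1* without mouse 1, 2, 6 or 9, *Ube2z* without mouse 1, 2 or 6, *Ube2e2* without mouse 2, 4 or 9, *Ube2d2a* without mouse 2 or 9, and *Ube2g1* without mouse 4 or 10. Without both Ube3aOE mice 9 and 10 the number of members called was 14, beside 7175 of all genes, with *Ube2e2*, *Ube2k*, *Ube2n* and *Ube2q1* lost and *Ube2g2* gained. *Ube2a*, *Ube2d1*, *Ube2e1* and *Ube2e3* were called in all 20 other settings. With the mouse as a block 21 members were called, which included all 17, beside 8737 of all genes.

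The makeup of the tissue differed between the regions as well. Genes known from neocortical neurons were lower in hippocampus in 5 of 6, and genes known from hippocampal neurons higher in 4 of 5, which matches the tissue labels. Summed, the neocortical genes gave 722 to 892 CPM in WT cortex and 212 to 441 in WT hippocampus, where WT mouse 2 gave the upper value. Higher in hippocampus were 6 of 6 markers of dividing cells, 4 of 5 of astrocytes, 4 of 5 of microglia, 4 of 4 of choroid plexus, 3 of 6 of the oligodendrocyte lineage, 2 of 5 of inhibitory neurons and 4 of 5 of excitatory neurons (1 lower). The 4 endothelial and 5 erythroid markers gave no call. Astrocyte markers summed to 678 to 858 CPM in WT cortex and 1041 to 1577 in WT hippocampus, and those of dividing cells to 33.8 to 39.7 and 53.6 to 70.7. No marker was at 0 in a whole group. Their part in the E2 differences was not tested.

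Of 27 tested genes in 4 other lists of the pathway 11 (40.7%) were lower in hippocampus and 3 (11.1%) higher, beside 25.6% and 25.3% of all genes. Of 8 E1 subunits 1 was higher in hippocampus, the SUMO-activating subunit *Uba2* 0.16 ± 0.033 (log2 fold change ± SE), and 1 was lower. Of the 4 genes that encode ubiquitin 2 were lower, *Rps27a* -0.21 ± 0.059 and *Ubb* -0.14 ± 0.046. Of the 5 tested genes of small ubiquitin-like modifiers 3 were lower, among them *Nedd8* -0.34 ± 0.044 and *Sumo3* -0.19 ± 0.045, and *Isg15*, the modifier that *Ube2l6* carries, did not pass the filter. Of 10 tested genes with an E2 fold outside the members 2 were higher and 5 lower. Among them were *Ube2c* 0.70 ± 0.11, the other E2 of the anaphase promoting complex, *Birc6* -0.45 ± 0.12, a giant E2 that restrains cell death, and *Uevld* 0.26 ± 0.090, which lacks the catalytic cysteine. The symbol of *Ube2c* matches the pattern of the members, but it was left out by name, so the counts of members do not include it. The 2 E2s of the anaphase promoting complex thus moved in opposite directions, with *Ube2c* at 3.25 to 5.64 CPM in cortex and 5.78 to 8.97 in hippocampus. Between the genotypes 0 of the 27 genes passed in either tissue (edgeR). At an unadjusted p under 0.05 there were 0 in cortex, beside 4.44% of all genes, and 4 (14.8%) in hippocampus, beside 7.21%.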

How the data were processed

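mRNA of the cortex and hippocampus of 5 WT and 5 Ube3aOE mice was sequenced in stranded libraries, 20 in all. The authors deposited whole-number counts of reads per gene, without normalization. The submitters' processing notes name HISAT2 2.1.0, HTSeq 0.11.2 and build GRCm38, and the counting options are not given in the sources used here. Reads assigned to no gene (18.8% to 30.3% of a library) stayed out of totals and tests. Positions, lengths and overlaps came from GENCODE M21, which held 47310 of 47729 identifiers.

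Counts were tested with edgeR 4.0.16 (TMM, filterByExpr, robust quasi-likelihood F test, Benjamini-Hochberg over all genes tested) in R 4.3.3, with DESeq2 1.42.0 as an alternative and Python 3.11.15 for tables and plots. Genotypes were compared within each tissue and on counts summed by mouse, and regions and the interaction over all libraries in 4 groups. The adjusted p threshold was 0.05. SEs and 95% intervals came from the F statistic and rest on the spread between mice of a group. The main region and interaction fits did not pair the 2 libraries of a mouse, whereas the fits with the mouse as a block did. The fits were tested on simulated data. CPM used TMM library sizes, and CPM per kb the longest coding transcript. The floor of 3 counts covers counting error only.

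Groups and mouse numbers came from the labels, so 2 libraries with 1 number come from 1 animal. After group means were taken out, their log2 CPM correlated across genes with a median of 0.215 (-0.0369 to 0.248, over 0.1 in 9 of 10 mice). The E2 genes, roles, pathway lists and markers were chosen with earlier results of these data known. Values in every group are given for *Ube2l3*, *Ube2l6*, the *Ube2d* genes, the 10 called members with the largest region difference, and the 3 most and 3 least abundant members. At most 3 called genes are named of each pathway list. *Ttr* and the neuronal and dividing-cell markers were named after their values were seen. Some genes, 1 tested E2 gene among them, enter the counts but are not reported here. The alternatives were DESeq2, its size factors, no filter, labelled sex as a covariate, trends on GC content and transcript length taken out per library (splines, 5 degrees of freedom), the mouse as a block, 1 genotype at a time, a fit of all libraries, each mouse left out and, chosen after seeing the data, mice 9 and 10 left out. No library was left out of the reported values.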

Additional observations from a re-analysis of the deposited data

Results flagged for a closer look

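The 29 tested members and their sum were searched in 4 groups of 5 mice, and in 8 of these 120 groups 1 mouse lay farther from its nearest neighbour than Dixon's 95% critical value allows for the range of the group. Chance alone gives about 1 in 20, which is 6 of 120, and the 8 values come from 7 libraries. *Ube2d3* in WT cortex was highest in mouse 3 with 209 CPM, higher than the 159 to 168 CPM of the other 4 mice. *Ube2o*, the large E2 with ligase activity, was highest in WT cortex of mouse 1 with 223 CPM, higher than the 183 to 193 CPM of the other 4 mice. The same library had the lowest level of *Ube2q2*, 27.6 CPM, lower than the 32.1 to 33.1 CPM of the other 4 mice. *Ube2k* in WT cortex was lowest in mouse 5 with 133 CPM, lower than the 142 to 145 CPM of the other 4 mice. In WT hippocampus *Ube2w* of mouse 4 was at 64.6 CPM, lower than the 67.6 to 67.8 CPM of the other 4 mice. Among the Ube3aOE hippocampus libraries *Ube2h* of mouse 10 was at 109 CPM, higher than the 90.8 to 94.4 CPM of the other 4 mice, and *Ube2q1* of mouse 8 at 108 CPM, higher than the 103.5 to 104.4 CPM of the other 4 mice. *Ube2n* of mouse 6 was at 116 CPM, lower than the 137 to 145 CPM of the other 4 mice. Without mouse 6 the region difference of *Ube2n* kept its call, and without mouse 5 or mouse 1 it did not. No member moved one way between the regions in every WT mouse and the other way in every Ube3aOE mouse (0 of 29).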

How the results depend on the processing

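Over 16 alternatives in cortex, 17 in hippocampus and 15 for the counts summed by mouse, 0 E2 genes passed between the genotypes. These were DESeq2, its size factors, no low-count filter, labelled sex as covariate, trends on GC content and transcript length taken out, a fit of all libraries, each mouse left out in turn and, in hippocampus, mice 9 and 10 left out together. Between the regions the paired fit, with the mouse as a replicate block, called 21 members and 8737 of all genes. Of these members 3 were higher in hippocampus. No filter on low counts left 12 members, beside 7879 of all genes. In WT mice alone 7 members passed, beside 5735 of all genes, and in Ube3aOE mice alone 6, beside 4075. These fits had 10 libraries each. Of the members called, 6 and 6 were lower in hippocampus and, in Ube3aOE mice, 0 higher. With the GC and length trends taken out 18 passed and 0 were higher, with or without the block, beside 9000 and 8411 of all genes. Leaving out a mouse gave 13 to 17 calls, 0 to 3 higher, beside 7284 to 7980 of all genes. Some small genotype differences changed sign, with an adjusted p of 0.901 or more in each setting where they did. Without 1 mouse they ran in cortex from -0.027 to 0.014 for *Ube2l3*, -0.072 to 0.063 for *Ube2l6* and -0.015 to 0.046 for *Ube2d2a*, and in hippocampus from -0.014 to 0.15 for *Ube2l6*, -0.028 to 0.021 for *Ube2d2a* and -0.024 to 0.073 for *Ube2d3*. With labelled sex *Ube2d2a* in cortex was -0.0049, and with the trends taken out *Ube2d3* in hippocampus was -0.027. Without mice 9 and 10 the hippocampus values were 0.017 for *Ube2l3*, 0.020 for *Ube2d1* and -0.066 for *Ube2d3*. The cause of these changes was not tested. The summed level of the members had a median of 2662 CPM, and 2644 without TMM factors or 2660 with DESeq2 size factors. The depth limits *Ube2t*, at 17 to 39 counts per library, and leaves 5 members untested.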
